A study of Mus musculus with 6 samples.

Results

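The 9 genes described here encode hormone receptors that act on lacrimal secretion: the steroid receptors Esr1 and Nr3c1, the thyroid hormone receptors Thra and Thrb, the prolactin receptor Prlr, the growth hormone receptor Ghr, the insulin and IGF-1 receptors Insr and Igf1r, and the melanocortin 5 receptor Mc5r. They were taken by gene symbol from a table of 50686 gene identifiers, by a rule that names the genes and uses no measured value. The genes were nevertheless chosen with earlier results of these data known. Of the 9, 8 had enough counts to be tested. Total RNA, depleted of ribosomal RNA, was sequenced from lacrimal glands of 13-week-old mice, with 3 biological replicates labelled wild-type and 3 labelled Eda-/-, the latter titled Tabby. Eda is the X-linked gene of ectodysplasin A, a TNF family ligand that hair follicles, teeth and exocrine glands need to form. Every sample carried the strain label C57BL/6, and no group had a treatment. The mutation is present in every cell and from conception, and whether the groups were littermates is not given in the sources used here. In bulk tissue, fewer cells of a type and less RNA per cell cannot be told apart.

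The lacrimal gland makes the watery part of the tear film, and its acinar cells release water, electrolytes and proteins when nerves stimulate them. Circulating hormones set the background on which the nerves act. Steroid and thyroid hormone receptors are transcription factors that bind DNA and change the genes a cell makes, whereas the prolactin and growth hormone receptors act at the cell surface through the kinase JAK2 and STAT5. The insulin and IGF-1 receptors are tyrosine kinases, and the melanocortin 5 receptor is a G protein-coupled receptor that raises cAMP and is needed for normal secretion of several exocrine glands of the mouse, the lacrimal gland among them.

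Prlr rose in the Eda-/- glands by 1.67-fold and Mc5r by 1.46-fold. The other 6 tested receptors did not pass in either direction, and Esr1 had too few counts to be tested. Among the partners of the receptors, the melanocortin receptor accessory protein gene Mrap rose as well. In the comparison as a whole 1728 of 13178 tested genes, or 13.1%, passed at an adjusted p under 0.05 (edgeR's quasi-likelihood fit, adjusted by Benjamini and Hochberg). Of all tested genes 6.21% were higher and 6.9% lower in Eda-/- glands. The 2 receptors that rose, out of 8 tested, are to be read against that 6.21%. Counts of genes in the pathway and cell type lists below are to be read against the same shares. For the count of 0 lower, the unadjusted p was under 0.05 for 0 receptors, and DESeq2 and limma-voom also passed 0. Levels are given as CPM, the counts of a gene relative to library size, scaled by the trimmed mean of M-values (TMM), in which the median tested gene lay at 0.003 (log2). Scaled by library totals alone, the median lay at -0.28, 246 genes were higher and 4365 lower, and Prlr alone of the receptors was called higher. Nr3c1 (-0.36), Thrb (-0.38) and Ghr (-0.33) then passed as lower, and Insr (-0.14) and Igf1r (-0.15) changed sign without passing. Mc5r, at 0.27, did not pass (adjusted p = 0.0892). Relative to the median of all genes their values were those given below, so each statement on a receptor is relative to the typical gene. The same holds for the 11 pathway lists described with them: with library totals each had more lower calls than with TMM, from 4 to 14, and at most 1 higher call.

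**Figure D1:**
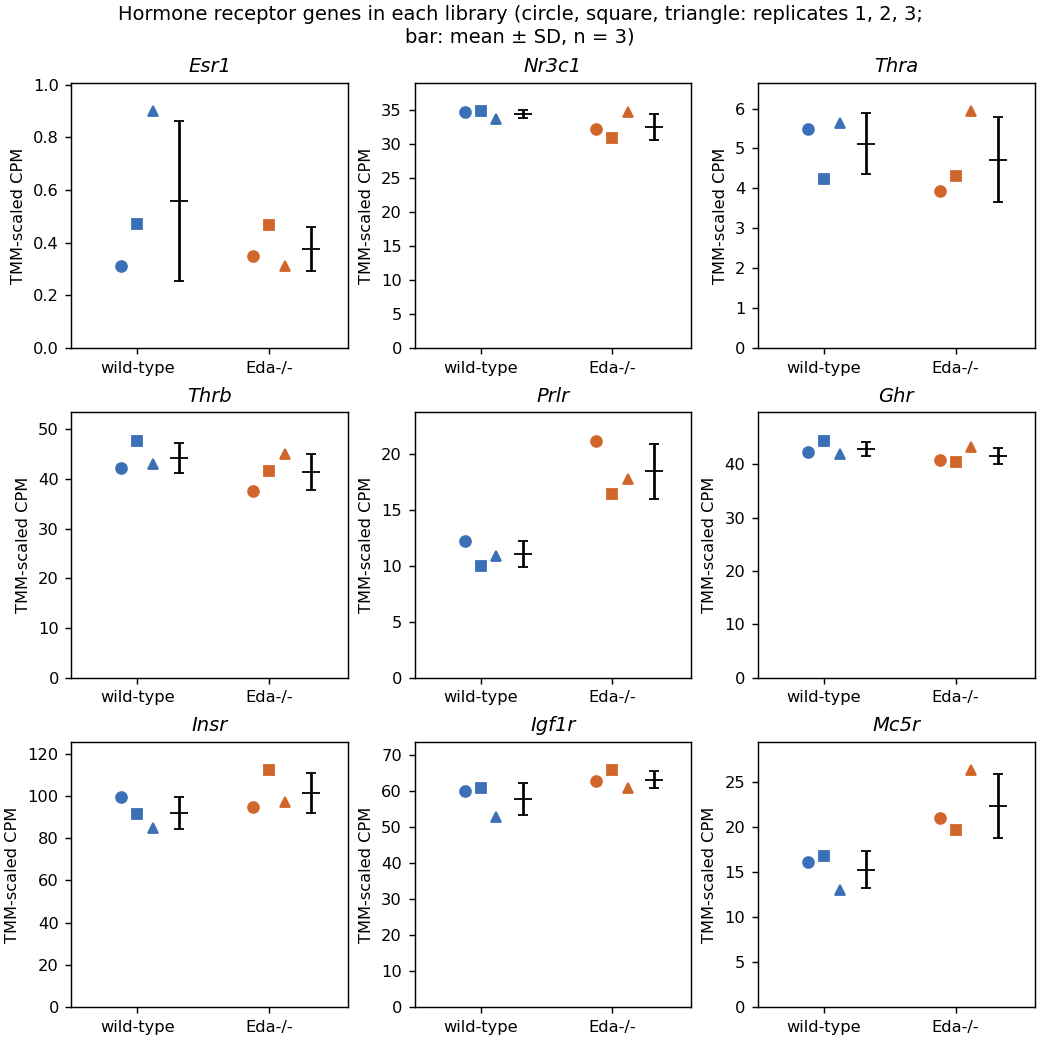
TMM-scaled CPM (vertical axis, from 0) of each of the 9 receptor genes in the 3 wild-type (blue) and 3 Eda-/- (orange) libraries, with marker shapes for replicates 1, 2 and 3 and bars for the mean ± SD. In the panels of Prlr and Mc5r every Eda-/- library lies above every wild-type library, as in 15.9% of all tested genes. In those of Esr1, Nr3c1, Thra, Thrb, Ghr and Insr the groups overlap. In that of Igf1r, which did not pass, they do not overlap at full precision. Its lowest Eda-/- and highest wild-type values are both 61.05 CPM to 4 digits.

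Library totals ran from 11894395 to 15700899 counts. Eda had 41 to 48 counts in the wild-type libraries and 0 to 2 in the mutants. Of 4 Y-linked genes every library held at least 194 counts each, and of Xist at most 3. Wild-type 3 stood apart in macrophage genes, with 181 CPM summed over 11 markers against a lowest wild-type sum of 95.8. Among acinar markers, Obp1a averaged 92800 CPM in wild-type and 101000 in Eda-/- glands and made up most of the summed list. The secretory genes Lpo (1920 and 2390 CPM) and Car6 (1510 and 2640 CPM) followed.

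The promoters of Prlr show how the gene that moved most among the receptors is laid out. RefSeq (GRCm38.p6) lists 3 transcription starts for Prlr in the table used here, and the counts, summed over the gene, do not separate them. The 250 bases before the outermost start (chr15:10176988-10177237, plus strand) and before the next one (chr15:10223656-10223905, plus strand) are printed 5′ to 3′. Capitals mark matches on either strand to TTCNNNGAA, the spaced palindrome that STAT proteins recognise, and to AGAACA, the half-site of the glucocorticoid and related steroid receptors.
Prlr outer start: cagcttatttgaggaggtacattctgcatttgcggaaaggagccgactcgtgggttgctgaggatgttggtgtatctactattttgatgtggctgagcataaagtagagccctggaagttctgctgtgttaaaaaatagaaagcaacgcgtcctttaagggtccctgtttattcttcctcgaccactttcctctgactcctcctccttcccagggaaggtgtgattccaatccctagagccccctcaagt
Prlr inner start: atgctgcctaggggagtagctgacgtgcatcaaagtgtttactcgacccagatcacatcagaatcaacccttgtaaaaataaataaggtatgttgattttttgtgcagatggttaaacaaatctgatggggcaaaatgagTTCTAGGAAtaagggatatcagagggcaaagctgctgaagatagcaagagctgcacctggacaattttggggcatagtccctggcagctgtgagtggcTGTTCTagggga
The inner window held 1 match to each motif, and the other 2 Prlr windows held neither. Of all 32851 windows of the same length 7.02% held TTCNNNGAA and 16.1% held AGAACA. The table had no window for Insr or Thra, and Mc5r and Nr3c1 were left out of the search. The motif counts for receptors therefore do not cover these genes. Windows of the other 5 of the 9 receptors (Prlr, Igf1r, Esr1, Thrb and Ghr) were searched, 10 in all. Among these, 1 window of Esr1 also held TTCNNNGAA and 1 of Thrb held AGAACA at 2 places. The half-site AGGTCA, which thyroid hormone and oestrogen receptors read, was found upstream of Igf1r and of 1 start of Thrb, against 14% of all windows. A kappaB motif, searched on both strands, was in 0 of the 10 windows and in 3.9% of all. These matches describe letters in the reference and not binding.

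Per length of merged exons, the receptors spanned a range from well expressed to nearly absent. Insr was the most abundant in wild-type glands at 6.69 ± 0.54 CPM per kilobase (SD, n = 3), followed by Thrb (5.97 ± 0.40), Ghr (4.74 ± 0.15), Nr3c1 (4.48 ± 0.079), Mc5r (3.92 ± 0.52) and Igf1r (3.45 ± 0.27). Thra (1.11 ± 0.17) and Prlr (0.721 ± 0.075) were lower, and Esr1 (0.041 ± 0.022) was lowest. The values of Insr and Thrb overlapped, as did those of Mc5r and Igf1r, while the other neighbours in the order did not. Averaged over both groups, Insr lay above 81.9% of tested genes on this scale, Mc5r above 73.7%, Prlr above 29.3% and Esr1 above 0.038%.

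**Figure D2:**
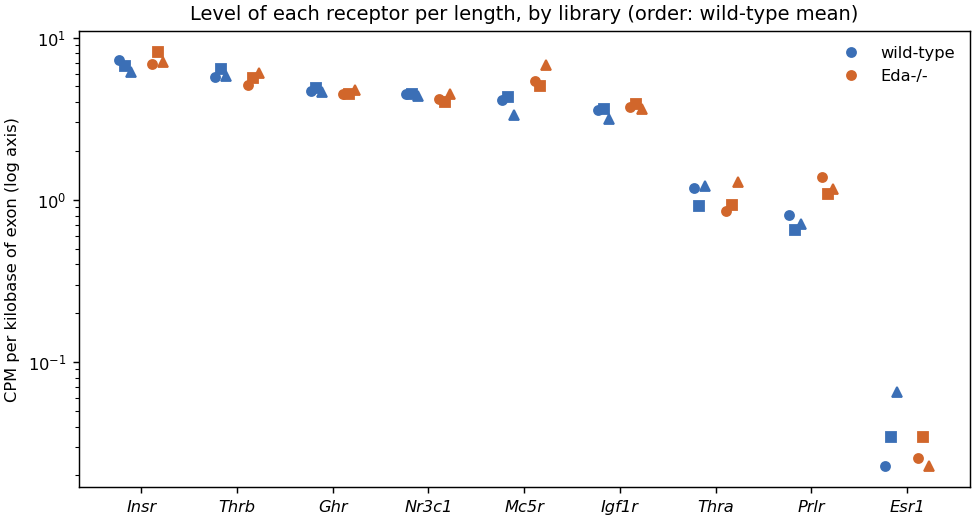
CPM per kilobase of merged exon (vertical log axis) of the 9 receptors in each library, ordered by the wild-type mean, with wild-type in blue, Eda-/- in orange and marker shapes for the replicates. Esr1 lies far below the rest, at 0.0228 to 0.0658, and the orange points of Mc5r and Prlr lie above their blue points.

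In the Eda-/- glands the order changed only around the receptors that rose. Mc5r moved from a place below Thrb, Ghr and Nr3c1 to one above them (5.73 ± 0.90 CPM per kilobase), with values that overlapped those of Thrb. Prlr (1.21 ± 0.16) overlapped Thra (1.02 ± 0.23), which it lay below in wild-type. Divided by the longest annotated transcript instead, Ghr came first in wild-type and Insr after it, and Mc5r stood below Igf1r. On that scale Mc5r (5.73) lay below Ghr (9.94) and Thrb (6.67) in the Eda-/- glands. Prlr (1.87) then stayed below Thra (1.93) there. Both moves in the order, and places among the upper 6, thus depend on the length used.

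Of the steroid receptors in the set, Nr3c1 did not pass and Esr1 was not tested. Nr3c1, the glucocorticoid receptor (ENSMUSG00000024431.14, GRCm38 chromosome 18, 39410545 to 39519421), had 34.7, 34.8 and 33.7 CPM in wild-type 1, 2 and 3 and 32.1, 30.8 and 34.6 in Eda-/- 1, 2 and 3. The groups overlapped, and the fold of Eda-/- over wild-type was 0.947 with a 95% interval of 0.84 to 1.07 (edgeR adjusted p = 0.577). Esr1, oestrogen receptor alpha (ENSMUSG00000019768.16, chromosome 10, 4611593 to 5005614), was counted 5, 8 and 14 times in wild-type 1, 2 and 3 and 4, 5 and 4 times in Eda-/- 1, 2 and 3. That was too few for the test; the ratio of scaled counts was 0.67, and counting error alone, by the exact binomial method at 95%, spans 0.317 to 1.34.

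Other receptors for steroids and lipids formed the setting for these. Of 13 tested genes in a list of 18, 2 fell and 0 rose, against 6.9% and 6.21% of all tested genes. The median log2 fold change was -0.15 against 0.003 for all tested genes. At an unadjusted p under 0.05, and in DESeq2 and limma-voom, 0 rose as well. Nr3c2, the mineralocorticoid receptor, had 30.4, 26.7 and 26.4 CPM in wild-type and 19.2, 22.2 and 22.8 in Eda-/- glands. It fell by 0.38 on the log2 scale (SE 0.10, edgeR adjusted p = 0.0182). Its adjusted p was 0.0893 without wild-type 1 and 0.0676 without Eda-/- 1. The other was the retinoic acid receptor Rarg (-0.72), which lost the call in 4 of 6 fits with a library left out, those lacking wild-type 1, wild-type 3, Eda-/- 1 or Eda-/- 2 (adjusted p up to 0.139). The list thus held 0 genes that fell without wild-type 1 or Eda-/- 1, and 1 without wild-type 3 or Eda-/- 2. DESeq2 and limma-voom each passed 1. Oestrogen receptor beta, Esr2, had 3.34 ± 0.503 and 2.89 ± 1.03 CPM and did not pass (-0.23, adjusted p = 0.604). By counts, Esr2 lay above the 0.31 to 0.90 CPM of Esr1 in every library.

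Of 22 tested genes known to be induced by glucocorticoids 6 fell and 0 rose in edgeR, with a median of -0.43. Among all tested genes 6.9% fell and 6.21% rose. For the higher direction 0 had an unadjusted p under 0.05, limma-voom passed 0 and DESeq2 passed 1, Fkbp5. Arrdc2, an arrestin domain gene, fell from 12.8, 11.3 and 8.02 to 5.68, 5.15 and 4.99 CPM (log2 fold change -1.03, SE 0.17, adjusted p = 0.0011). All mutant values lay below all wild-type values, as in 16.2% of all tested genes, and Arrdc2 passed without any 1 library. Nfkbia, the inhibitor of NF-kB, fell by 0.998 on the log2 scale and also passed without any 1 library; it is a target of NF-kB too. The kinase gene Sgk1 (-0.69), the EGF receptor inhibitor Errfi1 (-0.41), annexin Anxa1 (-0.53) and the transcription factor Cebpd (-0.87) each passed in 2 of the 6 fits with a library left out. The number that fell was 2 without wild-type 3 and 3 without Eda-/- 1 or Eda-/- 3. DESeq2 passed 3 lower. Fkbp5, a co-chaperone that holds steroid receptors in their low-affinity state and is induced by them, had the opposite sign and passed in DESeq2 but not in edgeR (96.97 ± 19.99 to 133.9 ± 21.48 CPM, 0.46, edgeR adjusted p = 0.2). Tsc22d3 (-0.23), Per1 (-0.46) and Dusp1 (-0.58) did not pass. The same direction was seen in macrophage markers, of which 6 of 11 fell, and their part in the decrease of this list was not tested.

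Genes described as induced by oestrogen did not share a direction. Of 12 tested, 2 rose and 3 fell (median 0.02), against 6.21% and 6.9% of all tested genes. Esr1 was near the limit of detection throughout. Stc2, a secreted glycoprotein, rose from 2.80 ± 0.814 to 7.48 ± 2.43 CPM (log2 fold change 1.42, SE 0.27, adjusted p = 0.00767). Bcl2, which protects cells from apoptosis, fell from 4.92 ± 0.393 to 2.44 ± 0.268 CPM (-1.01, SE 0.19, adjusted p = 0.0023). Ccnd1, a G1 cyclin, fell by 0.84. All of these passed without any 1 library. The other gene that rose, Xbp1 (0.28), lost the call when wild-type 1, wild-type 2, Eda-/- 1 or Eda-/- 3 was left out (adjusted p up to 0.161), and 1 gene rose in each of those fits. Wnt4 also fell (adjusted p = 0.0762 without Eda-/- 3).

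Among enzymes and cofactors around the steroid receptors few genes passed with TMM. Of 10 tested genes of steroid handling 1 rose and 0 fell, against 6.21% and 6.9% of all tested genes. The count of 0 held at an unadjusted p under 0.05, in DESeq2 and in limma-voom. With library totals 0 rose and 4 fell, and of the cofactors below 8 fell. The gene that rose was Hsd17b12, a reductase of oestrone and of long-chain fatty acid intermediates, at 15.21, 16.29 and 15.21 CPM in wild-type and 20.95, 20.15 and 20.27 in Eda-/- glands (log2 fold change 0.39, SE 0.09, edgeR adjusted p = 0.00907). Hsd11b1, which regenerates active glucocorticoid, had 1.92 ± 0.554 and 1.80 ± 0.208 CPM and did not pass (-0.10, adjusted p = 0.86). Hsd11b2, which inactivates it, had at most 2 counts in a library. Of 18 tested coactivators, corepressors and chaperones, 1 fell in edgeR (Tbl1x, -0.29) and 0 rose, with 1 higher at an unadjusted p under 0.05, 1 in DESeq2 (Fkbp5) and 0 in limma-voom. Tbl1x passed in limma-voom but not in DESeq2, and in 1 of the 6 fits with a library left out, the one without wild-type 1.

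Neither thyroid hormone receptor passed, and both overlapped between the groups. Thrb, the beta receptor (ENSMUSG00000021779.16, chromosome 14, 17660261 to 18038090), had 42.1, 47.6 and 42.9 CPM in wild-type and 37.5, 41.6 and 44.9 in Eda-/- glands. The groups overlapped, and the fold was 0.936 with a 95% interval of 0.823 to 1.06 (adjusted p = 0.521). Thra, the alpha receptor (ENSMUSG00000058756.13, chromosome 11, 98740638 to 98769006), had 5.49, 4.24 and 5.65 CPM in wild-type and 3.93, 4.31 and 5.93 in Eda-/- glands. On the log2 scale its interval was the widest of the tested receptors; as a fold it ran from 0.703 to 1.23 around a fold of 0.929 (adjusted p = 0.771), and its value was 0.02 (log2) without Eda-/- 1. Per kilobase of merged exons the beta receptor exceeded the alpha receptor by 5.51 ± 1.30 times in wild-type and 5.57 ± 0.729 times in Eda-/- glands (exact two-sided permutation test over samples, p = 1, n = 3 each). Divided by the longest annotated transcript, Thrb and Thra averaged 7.13 and 2.09 CPM per kilobase in wild-type and 6.67 and 1.93 in Eda-/- glands. The excess was then smaller, so its size depends on the length used. Of the merged exons of Thra 5.7% overlap Nr1d1, a clock repressor on the opposite strand. Without a stated strand setting, reads there cannot be told apart. Nr1d1 had 7.88 ± 0.960 and 6.01 ± 1.84 CPM and did not pass (-0.39, adjusted p = 0.221).

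Genes that handle or answer to thyroid hormone moved in both directions. Of 14 tested, 2 rose and 2 fell (median 0), against 6.21% and 6.9% of all tested genes. Ucp2, a mitochondrial carrier, rose by 0.50 (adjusted p = 0.0161; 0.084 without Eda-/- 1 and 0.0663 without Eda-/- 2), and Cpt1a, the gate of mitochondrial fatty acid oxidation, by 0.28. Gpd2, the mitochondrial glycerol phosphate dehydrogenase (-0.46), and the retinaldehyde dehydrogenase Aldh1a3 (-1.22) fell. Cpt1a, Gpd2 and Aldh1a3 passed in 1, 2 and 1 of the 6 fits with a library left out. The number that rose was 0 without Eda-/- 1 or 2 and 1 without wild-type 2, wild-type 3 or Eda-/- 3; the number that fell was 0 without wild-type 3, Eda-/- 1 or Eda-/- 2 and 1 without wild-type 2 or Eda-/- 3. DESeq2 and limma-voom passed 0 lower. Klf9, an early target of this hormone and of glucocorticoid, had 77.0 ± 6.97 and 82.6 ± 1.95 CPM (0.10, adjusted p = 0.442). The activating deiodinases were close to absent, Dio1 with at most 1 count and Dio2 with at most 5 counts in a library. The partner receptors Rxra (49.98 ± 4.03 and 49.32 ± 2.96 CPM) and Rxrb (11.95 ± 0.516 and 12.06 ± 0.876 CPM), with which both thyroid receptors bind DNA as dimers, did not pass (-0.02 and 0.02).

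Prlr had the largest change of the 8 tested receptors. Prlr (ENSMUSG00000005268.20, chromosome 15, 10177238 to 10349180) had 12.28, 9.998 and 10.9 CPM in wild-type 1, 2 and 3, from 197, 170 and 170 counts, and 21.2, 16.5 and 17.8 CPM in Eda-/- 1, 2 and 3, from 243, 176 and 228 counts. The lowest mutant library lay above the highest wild-type library, as in 15.9% of all tested genes. Group means were 11.1 ± 1.15 and 18.5 ± 2.44 CPM (SD, n = 3 each). Prlr rose 1.67-fold with a 95% interval of 1.41 to 1.99 (log2 fold change 0.74, SE 0.12; edgeR adjusted p = 0.000618). Over the 6 fits lacking a library the log2 fold change ran from 0.64 to 0.83 and the adjusted p reached 0.00547 at most. The gene has long and short receptor forms that differ in signalling, and gene counts do not separate them.

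Ghr, of the same cytokine receptor class, did not pass. Ghr (ENSMUSG00000055737.12, chromosome 15, 3317760 to 3583492) had 42.3, 44.4 and 41.9 CPM in wild-type and 40.8, 40.5 and 43.3 in Eda-/- glands. The groups overlapped, with a fold of 0.969 and a 95% interval of 0.866 to 1.08 (adjusted p = 0.753). The ratio of Prlr to Ghr per kilobase was 0.171, 0.133 and 0.154 in wild-type and 0.307, 0.24 and 0.242 in Eda-/- glands. All mutant ratios lay above all wild-type ratios, which gives p = 0.1 in an exact two-sided permutation test over samples, the smallest p that 3 against 3 allow, and 0.4 after adjustment over the 4 ratios computed. The ratio to Ghr does not depend on how the libraries are scaled.

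**Figure D3:**
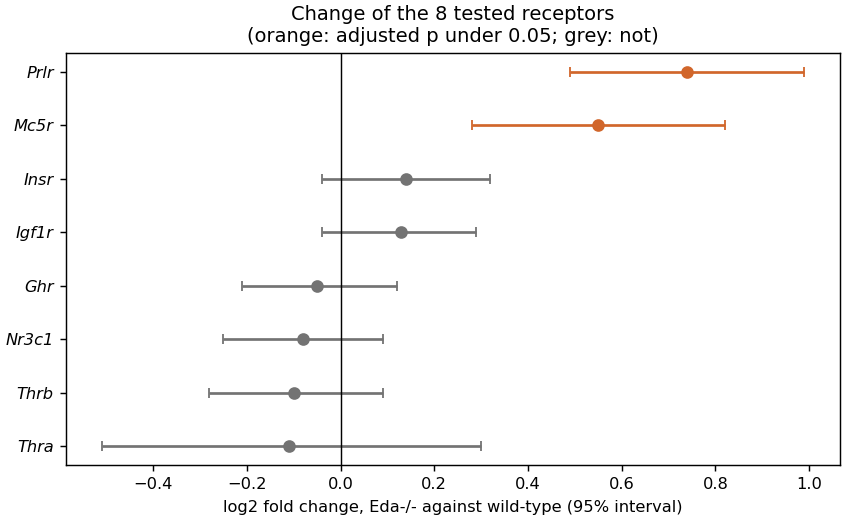
Log2 fold change of Eda-/- against wild-type (horizontal axis) with its 95% interval for the 8 tested receptors, orange where the edgeR adjusted p was under 0.05 and grey where it was not. The intervals of Prlr (0.49 to 0.99) and Mc5r (0.28 to 0.82) lie above 0 and those of the other 6 include 0.

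Downstream of the prolactin and growth hormone receptors no gene passed as higher beside Prlr. Of 18 tested genes of JAK-STAT signalling and its feedback 2 fell and 0 rose (median -0.14), against 6.9% and 6.21% of all tested genes. Although 3 were higher at an unadjusted p under 0.05, DESeq2 and limma-voom passed 0 higher. Stat5a, which carries the signal of both receptors to the nucleus, had 9.23, 8.53 and 10.5 CPM in wild-type and 11.4, 10.1 and 12.4 in Eda-/- glands (0.27, adjusted p = 0.175), and Stat5b had 22.7 ± 1.09 and 24.7 ± 0.847 CPM (0.12, adjusted p = 0.394). Socs2 and Cish, feedback inhibitors that STAT5 induces, had values of -0.29 (adjusted p = 0.465) and -0.07 (adjusted p = 0.925). In both the groups overlapped. The genes that fell were the growth hormone target Igf1 and Pias3 (-0.48), an inhibitor of STAT proteins that passed in 1 of 6 fits with a library left out. Their number was 0 without wild-type 2 or Eda-/- 3 and 1 without Eda-/- 1. Of these, limma-voom passed Igf1 and DESeq2 neither. Jak2 had 13.5 ± 2.90 and 11.6 ± 1.05 CPM (-0.22, adjusted p = 0.35).

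Insr and Igf1r were the most abundant receptors of the set by counts, and neither passed. Insr (ENSMUSG00000005534.10, chromosome 8, 3122061 to 3279617) had 99.5, 91.6 and 84.6 CPM in wild-type and 94.8, 112 and 97.2 in Eda-/- glands. The groups overlapped, with a fold of 1.1 and a 95% interval of 0.975 to 1.25 (adjusted p = 0.301). Igf1r (ENSMUSG00000005533.10, chromosome 7, 67952827 to 68233668) had 59.98, 61.05 and 52.8 CPM in wild-type and 62.95, 65.9 and 61.05 in Eda-/- glands. Its lowest mutant and highest wild-type values were equal to 4 digits, and the fold was 1.09 with a 95% interval of 0.972 to 1.23 (adjusted p = 0.325). The ratio of Insr to Igf1r per kilobase was 1.94 ± 0.0977 in wild-type and 1.95 ± 0.12 in Eda-/- glands (exact two-sided permutation test, p = 0.9, n = 3 each). The difference of the log2 ratios was 0.01.

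On the ligand side of this pathway some genes fell. Of 12 tested ligands, binding proteins and processing enzymes 4 fell and 0 rose (median -0.30), against 6.9% and 6.21% of all tested genes. The unadjusted p was under 0.05 for 2 higher genes, and DESeq2 and limma-voom passed 0 higher. Igf1, the ligand of Igf1r, had 6.17, 6.65 and 6.23 CPM in wild-type and 4.37, 4.50 and 3.66 in Eda-/- glands (log2 fold change -0.61, SE 0.16, adjusted p = 0.018). All mutant values lay below all wild-type values, as in 16.2% of all tested genes. Igf1 did not pass without wild-type 2 (adjusted p = 0.0738) or Eda-/- 3 (0.0901), nor in DESeq2 (0.0758). Pappa, the protease that frees IGF from binding proteins, fell from 3.26 to 1.46 CPM (-1.16, adjusted p = 0.0093; 0.0651 without wild-type 2). The binding protein Igfbp6 (-1.17) passed in 3 of 6 fits with a library left out, those without wild-type 2 or 3 or Eda-/- 1, and the proprotein convertase Furin (-0.38) in 3, those without wild-type 1 or 3 or Eda-/- 1. The number that fell was 1 without wild-type 2 or Eda-/- 3 and 2 without Eda-/- 2. Igf2 had at most 9 counts in a library. Fibroblasts and macrophages are known sources of Igf1, and markers of both were lower: summed CPM of 11 fibroblast markers ran from 214 to 276 in wild-type and 172 to 197 in the mutants, and of 11 macrophage markers from 95.8 to 181 and from 44.9 to 56.8. Their part in the decrease of Igf1 was not tested.

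Downstream of the insulin and IGF-1 receptors most genes did not pass. Of 34 tested adaptors, kinases and inhibitors 4 fell and 0 rose in edgeR (median 0.05), against 6.9% and 6.21% of all tested genes. The unadjusted p was under 0.05 for 6 higher genes, and DESeq2 and limma-voom passed 0 higher. Ptpn1, a phosphatase that switches off the insulin receptor, fell from 43.3, 39.9 and 39.8 to 28.0, 31.9 and 30.3 CPM (log2 fold change -0.45, SE 0.08, adjusted p = 0.00227). Its mutant values all lay below its wild-type values, as in 16.2% of all tested genes, and it passed without any 1 library. Tsc2, an inhibitor of mTOR complex 1 (-0.29), and the insulin-responsive glucose transporter gene Slc2a4 (-0.91) each passed in 1 of 6 fits with a library left out. Without wild-type 2, and likewise without wild-type 3, 2 fell, and 1 fell without Eda-/- 3, while 1 gene rose without Eda-/- 1 or Eda-/- 2. DESeq2 passed 2 lower. The receptor substrates Irs1 (10.4 ± 3.18 and 10.2 ± 1.97 CPM) and Irs2 (12.8 ± 0.957 and 10.8 ± 4.67 CPM) did not pass. In the mutants Irs2 ranged from 7.33 to 16.1 CPM.

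Both Mc5r and the melanocortin receptor accessory protein gene Mrap were higher in the Eda-/- glands. Mc5r (ENSMUSG00000007480.3, chromosome 18, 68337596 to 68342446) had 16.1, 16.8 and 13.0 CPM in wild-type, from 258, 286 and 202 counts, and 21.04, 19.7 and 26.35 CPM in the mutants, from 241, 210 and 338 counts. All mutant libraries lay above all wild-type libraries, as in 15.9% of all tested genes, and Eda-/- 3 was the highest. Group means were 15.3 ± 2.05 and 22.4 ± 3.53 CPM (SD, n = 3 each). Mc5r rose 1.46-fold with a 95% interval of 1.22 to 1.76 (log2 fold change 0.55, SE 0.13; edgeR adjusted p = 0.0103). Without Eda-/- 3 the log2 fold change was 0.42 and Mc5r did not pass (adjusted p = 0.0535); with any other library left out it passed.

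Mrap encodes a small membrane protein that the adrenal receptor Mc2r needs to reach the cell surface and that also binds other melanocortin receptors. Mrap (ENSMUSG00000039956.8, chromosome 16, 90738207 to 90749785) had 44.1, 51.9 and 48.9 CPM in wild-type and 92.5, 75.7 and 77.7 in Eda-/- glands. The lowest Eda-/- library lay above the highest wild-type library, as in 15.9% of all tested genes. The mean of Mrap rose from 48.3 ± 3.96 to 82.0 ± 9.14 CPM (log2 fold change 0.76, SE 0.09, edgeR adjusted p = 3.97e-05). It passed without any 1 library, with an adjusted p of at most 0.000286. Mrap2, its paralogue, had at most 2 counts in a library, and so had Pomc, which encodes the melanocortin ligands. Of the other 4 melanocortin receptors, Mc1r had at most 4 counts, Mc3r 3, Mc4r 2 and Mc2r 1 in a library. Fat cells also express Mrap, and of 5 tested fat cell markers 3 rose (median of the 5, 1.43), against 6.21% of all tested genes. Fabp4 rose from 0.729 to 2.89 CPM (1.98, adjusted p = 0.000694), Car3 from 0.511 to 1.99 CPM (1.93, adjusted p = 0.00983) and Cfd from 0.606 to 1.68 CPM (1.43, adjusted p = 0.0418). The defining fat cell genes Adipoq and Plin1 were at 0 to 8 counts in a library, with means of 0.140 and 0.479 CPM for Adipoq and 0.207 and 0.551 CPM for Plin1. All 11 markers summed to 15.2 to 30.2 CPM in wild-type and 16.5 to 21.6 in Eda-/- glands, a sum in which Lpl (13.8 and 6.31 CPM, not passing) had the largest share. The part of fat cells in the rise of Mrap was not tested.

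Against 6.21% higher and 6.9% lower among all tested genes, of 20 tested genes of melanocortin and cAMP signalling 1 fell and 3 rose (median -0.02). Besides Mrap these were the cAMP phosphodiesterases Pde4d, from 23.9 ± 1.63 to 32.9 ± 2.19 CPM (log2 fold change 0.46, SE 0.09, adjusted p = 0.00298), and Pde4b (0.31, adjusted p = 0.0293), which both break down the messenger that Mc5r raises. Pde4d passed without any 1 library, and Pde4b passed without wild-type 3 or Eda-/- 1 only. The adenylyl cyclase gene Adcy2 fell by 1.17 (adjusted p = 0.012; 0.0615 without wild-type 1 and 0.0578 without Eda-/- 1). The number that fell was 0 without wild-type 1 or Eda-/- 1 and 2 without wild-type 2, wild-type 3 or Eda-/- 3; DESeq2 and limma-voom passed 2.

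**Figure D4:**
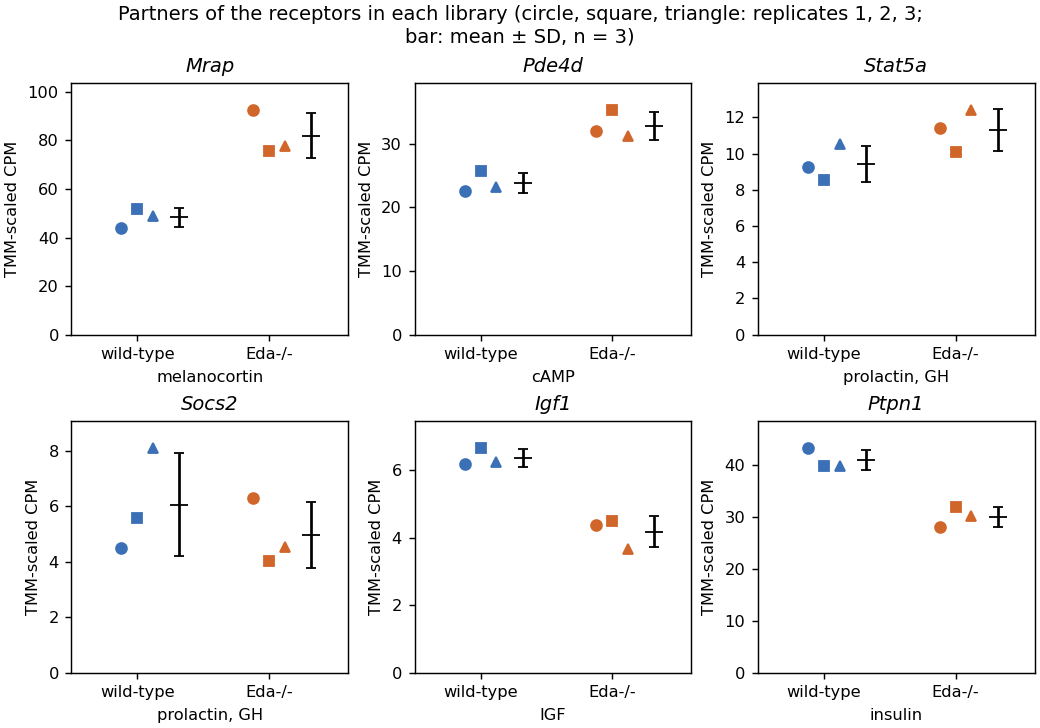
TMM-scaled CPM (vertical axis, from 0) of 6 partner genes, chosen after their values were seen, in the 3 wild-type (blue) and 3 Eda-/- (orange) libraries, with marker shapes for the replicates and bars for the mean ± SD. Mrap and Pde4d are higher and Igf1 and Ptpn1 lower in every Eda-/- library, while Stat5a and Socs2 overlap between the groups. Of all tested genes, 15.9% are higher and 16.2% lower in every Eda-/- library.

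Mc5r is also a gene of the Harderian and sebaceous glands, so markers of those tissues were read beside it. Of the list of 10, Awat1 and Elovl3 had at most 1 count in a library, while Awat2 had 9 to 21 counts (1.13 and 1.05 CPM on average) and Far1 averaged 17.6 and 14.1 CPM, neither passing. Far2 and Scd3 had 3 to 12 counts. The sum of the list, dominated by Scd1 and Soat1, ran from 715 to 767 CPM in wild-type and 690 to 817 in the mutants. Of its 6 tested genes 2 rose, Mc5r itself and the triglyceride synthesis gene Dgat2, which went from 0.436, 0.882 and 1.03 to 55.8, 29.9 and 57.7 CPM. Of 11 tested acinar markers 1 passed, as higher (Bhlha15, 0.36); values that did not pass ran from -1.32 (Lyz1) to 0.81 (Car6). Of 10 tested myoepithelial and basal markers 4 fell, and of 11 fibroblast markers 3 fell, against 6.9% of all tested genes. The part of these shifts in the rise of Prlr, Mc5r and Mrap was not tested. Receptors for other circulating hormones were mostly out of reach: 7 of 33 had enough counts, of which 1 fell, the natriuretic peptide receptor Npr2 (-1.07, adjusted p = 0.0179; 0.05 without Eda-/- 2 and 0.0593 without Eda-/- 3). That count was 2 without Eda-/- 1 and 0 in DESeq2. In edgeR 0 rose, with 1 higher at an unadjusted p under 0.05 and 0 in DESeq2 and limma-voom.

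Genes near the receptors on the chromosome were called at shares on both sides of the 13.1% of all tested genes. Of 21 tested genes within 2 Mb of Prlr 14.3% passed. Of 17 around Mc5r 0 passed in edgeR, DESeq2 and limma-voom, and 4 had an unadjusted p under 0.05. Near Prlr these were Slc1a3 (0.27), Il7r (-2.55) and Adamts12 (-0.73), named after their values were seen. Around Nr3c1 0 of 28 passed in the same 3 tools, with 1 at an unadjusted p under 0.05. Around the other receptors the share ran from 8.33% for Insr and Thra to 20% for Ghr, which had 10 tested neighbours. Around Mrap 10.7% of 28 passed.

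Across the 6 libraries, the log2 CPM most like that of Prlr among 10787 other protein-coding genes was that of Zmynd8 (Pearson r = 0.999; log2 fold change 0.48), a reader of chromatin marks, followed by Cables1 (r = 0.993; 0.33). For Mc5r it was Ccdc130 (r = 0.996; 0.41, not passing) and the protein phosphatase methyltransferase Lcmt1 (r = 0.994; 0.25). For Insr it was Fyttd1 and Zfp672, for Igf1r Prom1 and Ankrd28, for Ghr Tbl1xr1 and Xrcc5, for Nr3c1 Dclre1b and Prkacb, for Thrb Rdh5 and Galnt16, and for Thra Sart1 and Mterf1a, with r between 0.972 and 0.997. These are the closest of many genes over 6 points that share the group difference and the scaling, and serve as description.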

How the data were processed

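Gene expression was measured by RNA sequencing of lacrimal gland RNA, 3 samples of each genotype. The authors deposited 1 table of raw counts of reads per gene, with 1 column per sample. The submitters' processing notes name STAR, featureCounts, Trimmomatic, bcl2fastq, DESeq2 and the build GRCm38.p5. Tool versions, gene annotation, strandedness of counting and handling of multiply mapped reads: not given in the sources used here. Symbols, coordinates and exon lengths came from GENCODE M21 (GRCm38); 50462 of 50686 identifiers matched, and 0 columns were left unmatched. Promoter windows came from RefSeq.

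The whole table was fitted with edgeR 4.0.16 in R 4.3.3: filterByExpr (minimum count 10), which left 13178 genes, TMM scaling, robust quasi-likelihood fits with genotype alone, two-sided tests and Benjamini-Hochberg adjustment at 0.05. The SE of a log2 fold change was its size over the square root of F. CPM per kilobase used merged exons. The common coefficient of biological variation was 0.103. Per the series' design text the samples are biological replicates; pairs within a group differed by more than sampling noise (chi-square per degree of freedom 8.61 to 24.9).

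The receptors and the 25 lists (11 of pathways, 14 of cell types) were chosen with earlier results of these data known. Lists are described by counts and medians. The naming rule took the 9 receptors, their ligands and direct partners, overlapping genes, the 2 most alike genes for each receptor, up to 4 passing members of each pathway list by p, and up to 2 passing and up to 2 most abundant genes of each cell type list. Other genes were chosen after their values were seen, among them Fkbp5, Tsc22d3, Per1, Dusp1, Klf9, Jak2, Stat5a, Stat5b, Errfi1, Cebpd, Mc1r, Mc2r, Mc3r, Mc4r, Plin1, Lpl, Far1, Adipoq, Awat1 and Awat2; some genes within the rule are not reported here. Scripts were tested on simulated counts. DESeq2 1.42.0, limma-voom (limma 3.58.1), other scalings and filters, a trend on GC content and length, a replicate block and omission of each library were tried as alternatives.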

Additional observations from a re-analysis of the deposited data

How the results depend on the processing

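Prlr passed under all 11 other settings and in all 6 fits that left out a library. When CPM used library totals and no TMM factor, the median tested gene lay at -0.28 (log2), 246 genes were higher and 4365 lower, 1 receptor was higher and 3 lower. Nr3c1 (-0.36), Thrb (-0.38) and Ghr (-0.33) then passed, Insr (-0.14) and Igf1r (-0.15) changed sign and Mc5r (0.27) did not pass; relative to that shift the values were -0.08, -0.10, -0.05, 0.14, 0.13 and 0.55, those of TMM. Under this scaling Hsd17b12, Ucp2, Pde4b and Pde4d did not pass, nor did Cpt1a (-0.002) and Xbp1 (-0.004), which changed sign. With the GC and length trend removed Ghr was at 0.034, and at 0.033 with the replicate block added. Deviations of same-numbered samples did not correlate (r -0.035, 0.021 and -0.094), so the numbers were not taken as pairs. With a replicate block alone Prlr was at 0.739 (adjusted p = 0.000261) and Mc5r at 0.548 (0.0403), and no call among the receptors changed; 712 genes were higher and 896 lower. Without each library in turn the number of receptors higher was 1 to 2, Thra ran from -0.308 to 0.016, Mc5r from 0.416 to 0.637, the number of higher genes from 561 to 677 and of lower genes from 599 to 834. Upper quartile, DESeq2 size factors, both filters and removal of the 20 most abundant genes changed no receptor's call. Esr1, with 4 to 14 counts in a library, did not meet the count filter of the main fit.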
